A study of Rattus norvegicus with 4 samples.

Results

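The integrin subunit genes followed here in cultured glia of the rat olfactory system were Itga1, Itga4, Itga5, Itga6, Itga7, Itga8, Itga11, Itgb1, Itgb4 and Itgb8. They were found by the gene name of the array design, after removal of an ending for predicted or mapped genes, among spots that are not controls. This gave 10 genes on 14 probes and 23 spots, of 35658 gene names, 41012 probes and 43379 spots in all. All 10 genes, and all 14 of their probes, passed the filter on dim probes and were tested among 31868 gene names.

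Olfactory ensheathing cells, the glia that accompany olfactory axons, came from male Fischer rats and from 2 tissues, olfactory mucosa and olfactory bulb, and were grown under one culture protocol, with no genetic or drug treatment named in the labels. Each of 4 two-colour Agilent arrays held 1 biological replicate, with cells of the mucosa in Cy5 and cells of the bulb in Cy3, and the submitters' design text calls the samples paired. Polyadenylated RNA went through a global PCR amplification as cDNA before 250 ng per channel were labelled, and animal age, passage and the purity of the cultures are not given in the labels. The dyes were never swapped, so tissue and dye cannot be told apart, and in a bulk culture fewer cells of a type and less RNA per cell cannot be told apart.

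Integrins are cell surface receptors made of an alpha and a beta chain that together bind the extracellular matrix or a protein on another cell. The alpha chain largely sets the ligand: some alpha chains bind collagens, some bind laminins of basement membranes, and others read the short arginine-glycine-aspartate (RGD) motif of fibronectin, vitronectin or the latent form of transforming growth factor beta. Glia of peripheral nerve use laminin-binding integrins to sort and wrap axons, and several of the subunits also serve muscle cells and fibroblasts.

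The probes are 60-base oligonucleotides, and those below carry the results that follow. The first 4 report the subunits that differed, the fifth reports Itgb1, the beta chain that most of these alpha chains pair with, and the last 2 cover known features of integrin alpha chains. Capitals in Itga1 mark the 12 bases that encode the first 4 residues of the conserved motif of alpha chain tails at the inner face of the membrane. Capitals in the second Itga6 probe mark the 12 bases that encode the 4-residue basic site where the precursor is cut into heavy and light chain. Sequences are written 5′ to 3′ as in the deposited files.
Itga11: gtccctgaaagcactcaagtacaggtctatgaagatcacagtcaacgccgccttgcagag
Itga8: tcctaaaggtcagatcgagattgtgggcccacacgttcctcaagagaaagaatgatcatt
Itgb8: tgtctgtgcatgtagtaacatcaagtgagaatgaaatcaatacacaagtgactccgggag
Itga7: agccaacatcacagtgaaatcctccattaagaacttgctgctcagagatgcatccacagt
Itgb1: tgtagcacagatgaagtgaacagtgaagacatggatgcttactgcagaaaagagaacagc
Itga1: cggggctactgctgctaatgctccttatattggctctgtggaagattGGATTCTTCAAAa
Itga6, second probe: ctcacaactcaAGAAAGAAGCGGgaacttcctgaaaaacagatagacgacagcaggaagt

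In the rn4 build, per the file headers, the Itga11 probe lies at chr8:66930435-66930633 on the plus strand and the Itgb8 probe at chr6:146533386-146533445 on the minus strand. The Itga7 probe lies at chr7:2264646-2264705 on the plus strand, the Itgb1 probe at chr19:58611137-58611196 on the minus strand, and the second Itga6 probe at chr3:54263800-54263859 on the plus strand. The Itga1 probe lies at chr2:47107893-47112038 on the minus strand. Its 60 bases are spread over 4146 bases of genome, and those of Itga11 over 199 bases, so both cross a gap between exons. The Itga8 probe has no coordinates in the files used here, and no rn4 annotation was used to place the other probes in exons or untranslated regions.

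Of the 10 subunits, 2 were higher in cells of the mucosa, 2 were lower and 6 did not pass the test (limma, Benjamini-Hochberg adjustment over all gene names, threshold 0.05). Itga11, a collagen receptor chain, was 11.7-fold higher, and Itga8, an RGD receptor chain, was 9.29-fold higher. Itgb8, the beta chain that pairs with the alpha v chain, was 5.90-fold lower and Itga7, a laminin receptor chain, was 2.64-fold lower. Over all 31868 names 6.62% were called, 3.24% as higher and 3.39% as lower. Median centring in place of loess put 59.6% of its calls on the higher side, against 48.9%, and changed no call among the 10 subunits. The median log2 ratio of mucosa over bulb was -0.12 over the 10 subunits and 0.012 over all names. The 6 subunits that were not called lay between -0.48 and 0.98. All 10 were well above background on 4 of 4 arrays in both channels, and 0 were saturated.

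**Figure D1:**
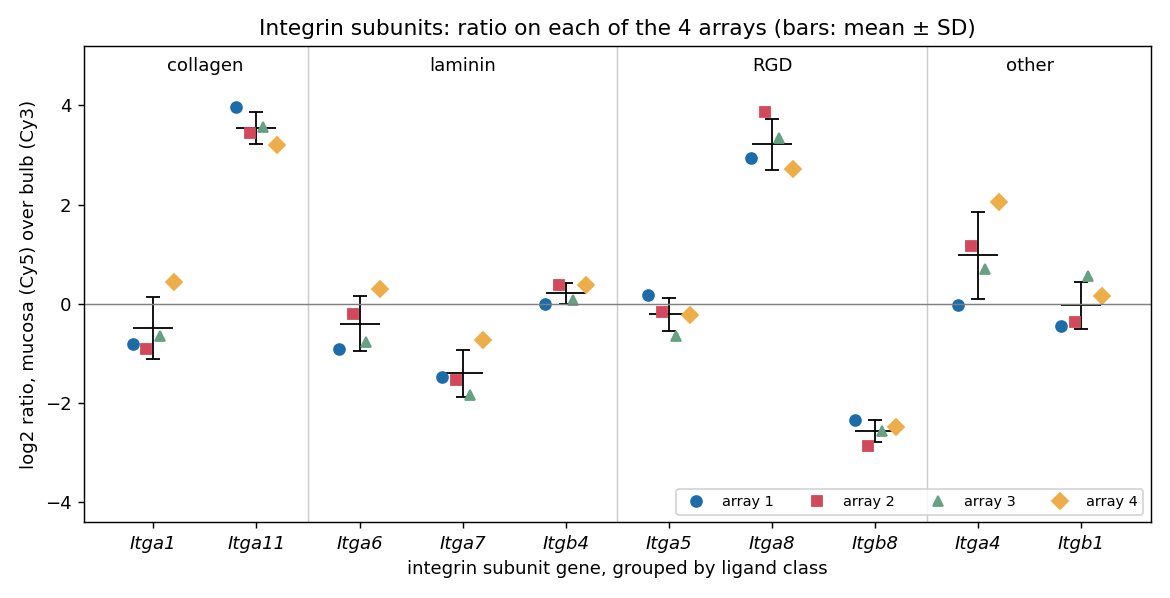
Log2 ratio of mucosa (Cy5) over bulb (Cy3) for each of the 10 integrin subunits on the 4 arrays, grouped by ligand; each symbol is an array and bars give the mean ± SD. Itga11 and Itga8 lie above 0 on every array, between 2.71 and 3.97, Itgb8 and Itga7 lie below 0 on every array, and the other 6 genes lie near 0 or have arrays on both sides of it.

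**Figure D2:**
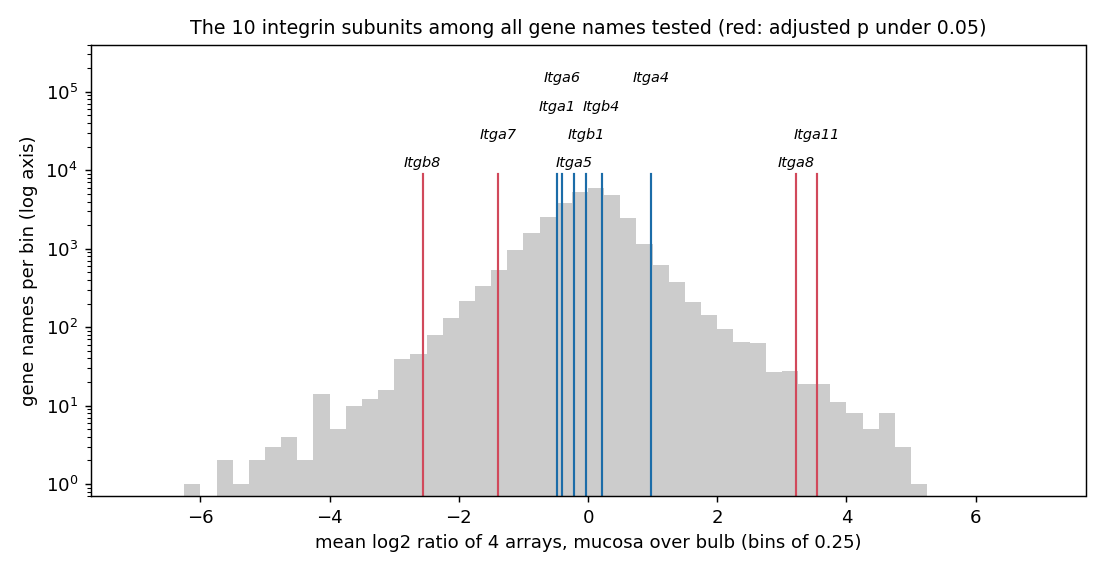
Histogram of the mean log2 ratio of all 31868 gene names tested (bins of 0.25, log count axis), with a line for each of the 10 subunits; red lines are those with an adjusted p under 0.05. Itga11 and Itga8 lie in the upper tail at 3.55 and 3.22, Itgb8 in the lower tail at -2.56 and Itga7 at -1.40. The 6 subunits not called lie between -0.48 and 0.98, with Itga4 the highest of them, above 94.5% of all names.

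Cell type markers moved with the same contrast, in which 3.24% of all names were called higher and 3.39% lower. The list for ensheathing and Schwann glia had 9 genes, of which 6 were lower and 0 higher in the mucosa channel, and their summed linear signal ranged from 16990 to 19932 in mucosa and from 41211 to 53256 in bulb. The mean log2 ratio of S100b, a calcium-binding protein of glia, was -1.49 ± 0.13 (SD, n = 4) while Ngfr, the low-affinity neurotrophin receptor used to identify ensheathing cells, had -1.27 ± 0.23. Of 8 fibroblast markers 4 were higher, Col1a1, Col1a2, Thy1 and Mfap5, and 2 were lower, Dcn and Fbln1. The summed signal of the list was 213632 to 254115 in mucosa and 68680 to 98943 in bulb. Such a sum follows its brightest genes, here Col1a1 and Col1a2 (mean log2 signals of 17.17 and 15.88 in mucosa), and does not measure cell number. Of 6 tested markers of smooth muscle and pericytes 4 were higher, Tagln, Cnn1, Pdgfrb and Cspg4, and 0 lower. The 2 not called went different ways, Des at 0.23 ± 0.30 and Rgs5 at -2.45 ± 2.29 (SD, n = 4). Rgs5 was lower in mucosa on 3 arrays and higher on 1, and Acta2 and Myh11 are not analysed here. The sums of this list were 95147 to 108335 in mucosa and 17132 to 28306 in bulb, and its brightest gene was Tagln (16.13 in mucosa). Of 5 neuronal markers 0 were higher and 2 lower, the neurofilament genes Nefl and Nefm. Astrocyte markers were higher for 0 and lower for 2 of 6, macrophage markers for 0 and 0 of 5, endothelial markers for 1 and 1 of 4 and epithelial markers for 1 and 1 of 6. No tested marker was below background on all 4 arrays of a channel. The part of these cell type differences in the integrin results was not tested.

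Among the collagen receptors, Itga11 was higher in mucosa and Itga1 did not pass the test. Itga11 encodes the alpha 11 chain, a receptor for fibrillar collagen known from fibroblasts and other mesenchymal cells. Its normalized log2 signal in mucosa was 12.84, 13.00, 12.75 and 12.40 on arrays 1 to 4, against 8.87, 9.56, 9.17 and 9.19 in bulb. The channels did not overlap, and the lowest mucosa value stood far above the highest bulb value. Here and below, a lack of overlap does not mark out called genes. It also held for Itga3, Itga10 and Fn1, which were not called, and its share over all names was not counted. The log2 ratios were 3.97, 3.44, 3.57 and 3.21, a mean of 3.55 ± 0.32 (SD, n = 4; 95% interval 3.02 to 4.08; adjusted p = 0.00150). By absolute ratio Itga11 was at rank 94 of the 31868 names.

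Itga1 encodes the alpha 1 chain, a receptor for basement membrane collagen and laminin. Its log2 ratios were -0.80, -0.92, -0.65 and 0.44, lower in mucosa on 3 arrays and higher on array 4. The mean was -0.48 ± 0.63 (SD, n = 4; 95% interval -1.17 to 0.21; adjusted p = 0.360), and its signals in both channels overlapped, with means of 10.82 ± 0.51 in mucosa and 11.31 ± 0.37 in bulb. Within an array, the log2 ratio of Itga11 exceeded that of Itga1 by 4.03 ± 0.87 (SD, n = 4), between 2.77 and 4.77. A two-sided exact permutation test by sign flips over the 4 arrays gave p = 0.125, the smallest that 4 arrays allow, and the same value after adjustment over the 6 pairs of subunits compared in this way.

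The other collagen-binding alpha chains were not called. Itga2, the alpha 2 chain of the platelet and epithelial collagen receptor, had a log2 ratio of 0.39 ± 1.28 (SD, n = 4; adjusted p = 0.654). Itga10, whose alpha 10 chain is known from cartilage, had 0.53, 1.13, 0.95 and 1.23, higher in mucosa on 4 of 4 arrays, with a mean of 0.96 ± 0.31 and an adjusted p of 0.0552. By the deposited log ratio Itga10 was called, at 1.52 (adjusted p = 0.0467). Both genes were singled out after their values were seen.

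Of 11 tested collagen genes, the ligands of this class, 3 were higher in mucosa and 0 lower, with a median of -0.11. That is 27.3% called, against 6.62% over all names. Col2a1, the fibrillar collagen of cartilage, had a log2 ratio of 4.90 ± 0.56 (SD, n = 4; adjusted p = 0.00141). The 2 genes of type I collagen, the main fibrillar collagen of connective tissue, had 2.27 ± 0.45 for Col1a2 and 1.82 ± 0.12 for Col1a1, with adjusted p of 0.00630 and 0.00616. The other 8 collagen genes were not called and lay between -0.85 and 0.20.

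**Figure D3:**
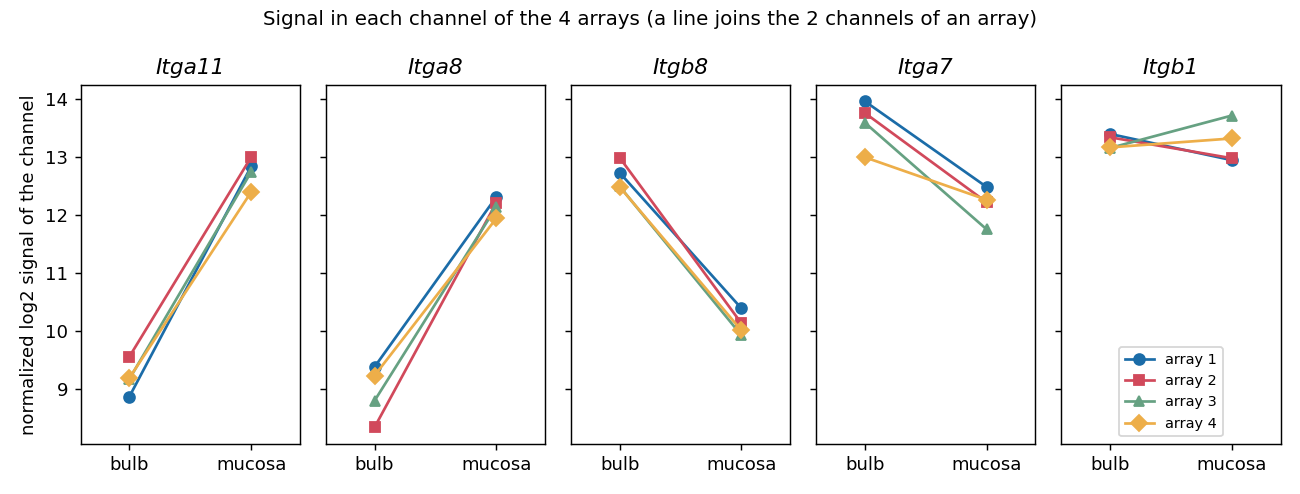
Normalized log2 signal of 5 integrin subunits in the bulb (Cy3) and mucosa (Cy5) channel; a line joins both channels of an array. The lines of Itga11 and Itga8 go up and those of Itgb8 and Itga7 go down on all 4 arrays, while those of Itgb1 go both ways.

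Among the laminin receptors, Itga7 was lower in mucosa, and neither Itga6 nor Itgb4 was called. Itga7 encodes the alpha 7 chain, the main laminin receptor chain of muscle fibres. Its normalized log2 signal in mucosa was 12.48, 12.22, 11.75 and 12.26, against 13.96, 13.76, 13.59 and 13.00 in bulb. The channels did not overlap, and array 4 had the closest pair of values. The log2 ratios were -1.48, -1.54, -1.84 and -0.73, a mean of -1.40 ± 0.47 (SD, n = 4; 95% interval -2.0 to -0.80; adjusted p = 0.0281). A second probe had -0.84, -1.35, -0.04 and -1.19, of the same sign on 4 arrays, with a mean of -0.86 ± 0.58 and an adjusted p over probes of 0.131. The call for Itga7 was lost without replicate 1, 2 or 3 (adjusted p of 0.104, 0.1196 and 0.0855) and with the deposited log ratio, at -1.43 (adjusted p = 0.0549).

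Itga6 encodes the alpha 6 chain, which pairs with beta 1 or beta 4 and binds laminins. Its brighter probe, at chr3:54235957-54236016, had log2 ratios of -0.90, -0.20, -0.77 and 0.29, lower in mucosa on 3 arrays and higher on array 4. The mean was -0.40 ± 0.55 (SD, n = 4; 95% interval -1.04 to 0.25; adjusted p = 0.416). The second Itga6 probe, over the precursor cleavage site shown above, had 0.022, -1.61, -2.64 and -1.12, a mean of -1.34 ± 1.104 (adjusted p over probes of 0.126). The 2 probes had the same sign on 2 of 4 arrays and differed by -0.94 ± 1.26, the second minus the first. The second probe stood above the first on array 1 and below it on the other arrays, so the probes did not agree. Within an array the Itga7 ratio was below that of the brighter Itga6 probe by -1.002 ± 0.31 (range -1.34 to -0.58; exact permutation p = 0.125). This did not hold at the second Itga6 probe, against which the Itga7 ratio was lower on array 1 and higher on the 3 others.

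Itgb4 encodes the beta 4 chain, which pairs only with alpha 6 and anchors hemidesmosomes of epithelia to laminin. Its probe, at chr10:106116523-106116582, had log2 ratios of -0.0059, 0.39, 0.076 and 0.38. The mean of 0.21 ± 0.21 (SD, n = 4) did not pass the test (95% interval -0.28 to 0.70; adjusted p = 0.563), and the interval leaves out a difference as large as that of Itga7. Itga3, the alpha 3 chain of a further laminin receptor, had 0.75, 0.41, 1.35 and 3.44, higher on 4 of 4 arrays but most of all on array 4. Its mean of 1.49 ± 1.36 was not called (adjusted p = 0.144), a second probe had 0.062 ± 0.77, and the gene was singled out after its values were seen.

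All 11 laminin chain genes were tested, of which 1 was higher and 1 lower, with a median of -0.11. The share called was 18.2%, against 6.62% over all names. Lama5, the alpha 5 chain of basement membrane laminins, had a log2 ratio of 1.29 ± 0.41 (SD, n = 4; adjusted p = 0.0307). Lamc1, the gamma 1 chain shared by most laminins, had -1.23 ± 0.35 (adjusted p = 0.0304). Both calls were lost when any 1 array was left out, with the highest adjusted p at 0.0974 for Lama5 and 0.112 for Lamc1.

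**Figure D4:**
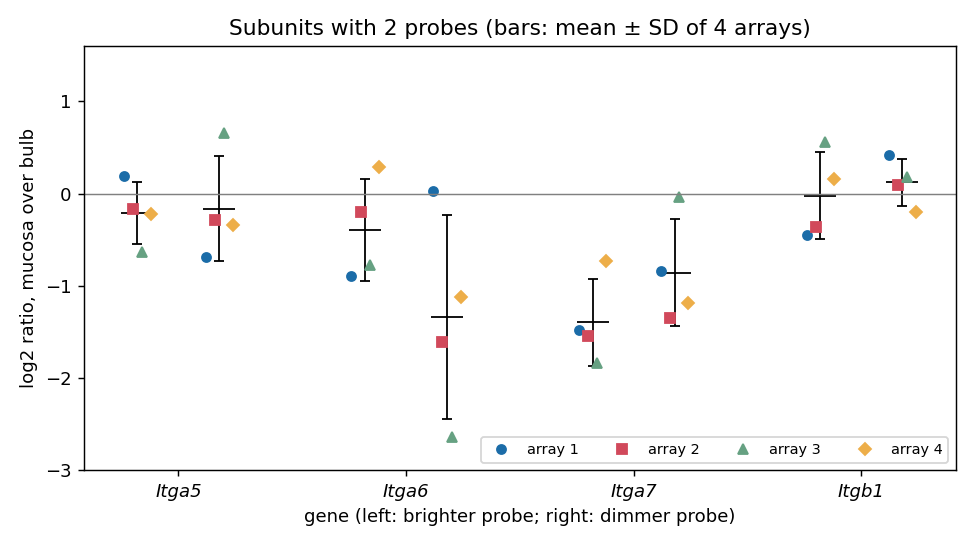
Log2 ratio of mucosa over bulb on each of the 4 arrays at both probes of Itga5, Itga6, Itga7 and Itgb1; each symbol is an array. Both Itga7 probes lie below 0 on all 4 arrays, whereas the probes of Itga6 share a sign on 2 arrays, those of Itga5 on 2 and those of Itgb1 on 1.

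Among the RGD receptors, Itga8 was higher in mucosa, Itgb8 was lower and Itga5 did not pass the test. Itga8 encodes the alpha 8 chain, which pairs with beta 1 and binds nephronectin, fibronectin and tenascin. Its normalized log2 signal in mucosa was 12.31, 12.21, 12.14 and 11.94, and in bulb 9.38, 8.34, 8.80 and 9.23. The channels did not overlap, and the mucosa values lay close together. The log2 ratios were 2.93, 3.87, 3.34 and 2.71, a mean of 3.22 ± 0.51 (SD, n = 4; 95% interval 2.59 to 3.84; adjusted p = 0.00287), at rank 134 by absolute ratio.

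Itgb8 encodes the beta 8 chain, known for its part in releasing active transforming growth factor beta from its latent complex. Its normalized log2 signal in mucosa was 10.39, 10.13, 9.93 and 10.01, against 12.73, 12.99, 12.49 and 12.49 in bulb. The channels did not overlap. The log2 ratios were -2.34, -2.86, -2.57 and -2.48, a spread of 0.22 (SD, n = 4) about the mean of -2.56 (95% interval -3.05 to -2.07; adjusted p = 0.00287), at rank 324. Within an array Itga8 exceeded Itgb8 by 5.78 ± 0.71 on the log2 ratio scale (range 5.19 to 6.73; exact permutation p = 0.125).

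Itga5 encodes the alpha 5 chain of the classical fibronectin receptor. Its log2 ratios at the brighter probe, at chr7:142264541-142264768, were 0.19, -0.16, -0.64 and -0.22, with arrays on both sides of 0. The mean was -0.21 ± 0.34 (SD, n = 4; 95% interval -0.75 to 0.33; adjusted p = 0.603), and median centring of the arrays in place of loess gave 0.048. The second probe had -0.68, -0.28, 0.65 and -0.34, a mean of -0.16 ± 0.57. Within an array the Itga8 ratio exceeded that of Itga5 by 3.42 ± 0.68 (range 2.75 to 4.04; exact permutation p = 0.125).

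The partner of Itgb8, the alpha v chain gene Itgav, was not called. Its log2 ratios were 0.0020, -0.31, -0.95 and -0.031, a mean of -0.32 ± 0.44 (SD, n = 4; 95% interval -0.91 to 0.26; adjusted p = 0.462), and its second probe had -0.31 ± 0.36. Itgb3 and Itgb5, which encode 2 alternative beta partners of the alpha v chain, were higher in mucosa, opposite to Itgb8. This does not extend to every beta chain: Itgb1 was not called (-0.025) and Itgb6 was not tested. Itgb3, the beta 3 chain of the vitronectin receptor, had 1.95, 1.68, 1.48 and 2.22, a mean of 1.83 ± 0.32 (adjusted p = 0.00857). Itgb5, the beta 5 chain, had 2.00, 2.63, 1.87 and 1.35, a mean of 1.96 ± 0.53 (adjusted p = 0.0120).

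Within an array the log2 ratio of Itgb3 exceeded that of Itgb8 by 4.39 ± 0.28 (SD, n = 4; range 4.05 to 4.69), and that of Itgb5 exceeded it by 4.53 ± 0.70 (range 3.83 to 5.49), each with an exact permutation p of 0.125. Both calls were lost without replicate 1 (adjusted p of 0.0532 for Itgb3 and 0.0652 for Itgb5) or without replicate 2 (0.0504 and 0.0576). The Itgb5 probe, at chr11:68645601-68645660, is printed here because its strand limits this value: it reads as integrin coding sequence on the complementary strand, unlike the probes above, and the strand that was labelled is not given in the labels.
Itgb5: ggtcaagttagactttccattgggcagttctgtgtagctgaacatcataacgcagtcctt

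Of 16 further integrin subunits listed, 12 were tested, and these 2 were higher and 0 lower, with a median of 0.31. Of those tested 16.7% were called, against 6.62% over all names. The 10 that were not called lay between -0.99 for Itgam, the alpha M chain of myeloid cells, and 1.49 for Itgb7, a leukocyte beta chain. The Itgam ratios had an SD of 2.23, wider than that of any of the 10 subunits followed here.

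Of 16 tested ligands of RGD receptors and of the alpha 4 chain, 5 were higher in mucosa and 2 lower, with a median of 0.75. In this list 43.8% were called, against 6.62% over all names. The matrix glycoprotein gene Thbs1 had a log2 ratio of 4.65 ± 0.25 (SD, n = 4; adjusted p = 0.00107). Ccn2 (Ctgf on the array), a matricellular protein bound by several integrins, had 2.50 ± 0.078 (adjusted p = 0.00266). Mfge8, a secreted RGD protein that bridges the alpha v integrins to dying cells, had 3.26 ± 1.38 (adjusted p = 0.0193), a call lost without replicate 1 (0.0934) or 2 (0.0612). Postn, the matrix protein periostin, had 1.70 ± 0.20 (adjusted p = 0.00840), a call lost without replicate 1 (0.0516) or 2 (0.0578).

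Tgfb3, whose latent form is a ligand of the integrin of alpha v and beta 8, was higher by 2.46 ± 0.13 on the log2 scale (SD, n = 4; adjusted p = 0.00287), while Tgfb1 had 0.44 ± 0.60 (95% interval -0.24 to 1.11; adjusted p = 0.390). Vtn, which encodes vitronectin, the ligand of the beta 3 and beta 5 receptors, had -3.60 ± 1.16 (adjusted p = 0.00894). Vtn was well above background on 2 mucosa and 4 bulb arrays, and the call was lost with the deposited log ratio (-5.37, adjusted p = 0.0562) and without replicate 1 (-3.33, adjusted p = 0.0557). Tnc, which encodes tenascin C, a ligand of the alpha 8 chain, had -2.28 ± 0.46 (adjusted p = 0.00648). Fn1, the fibronectin gene, had 1.45, 1.54, 0.60 and 0.64, higher on 4 of 4 arrays, with a mean of 1.06 ± 0.50 that was not called (adjusted p = 0.0659). It was called under 4 of 23 other settings, as with median centring at 1.47 (adjusted p = 0.0334), and not under 19. Nephronectin, the high-affinity ligand of the alpha 8 receptor, is not analysed here, and Tgfb3, Tnc and Postn were singled out after their values were seen.

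Itga4 and Itgb1 belong to none of the 3 ligand classes. Itga4 encodes the alpha 4 chain, which binds Vcam1 and an alternatively spliced stretch of fibronectin. Its normalized log2 signal in mucosa was 6.76, 8.16, 8.59 and 10.04, and in bulb 6.77, 7.0, 7.89 and 7.98, so the channels overlapped and the mucosa values were widely spread. The log2 ratios were -0.011, 1.16, 0.70 and 2.06. The mean of 0.98 ± 0.87 (SD, n = 4; 95% interval 0.12 to 1.83) was not called after adjustment over all names (adjusted p = 0.164). Its probe lies at chr3:62057840-62057899. Its ligand Vcam1 had 0.091 ± 0.69 (95% interval -0.64 to 0.82; adjusted p = 0.878) and was well above background on 3 arrays in each channel.

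Itgb1 encodes the beta 1 chain, the partner of the alpha 1, alpha 4, alpha 5, alpha 6, alpha 7, alpha 8 and alpha 11 chains. Its probe was spotted 10 times on each array, of which 10, 10, 8 and 10 spots were used. The log2 ratios were -0.45, -0.36, 0.56 and 0.15, lower in mucosa on 2 arrays and higher on 2. Between spots of the same array the SD was 0.046, 0.045, 0.033 and 0.049, far below the SD of 0.47 between arrays. The mean was -0.025 (95% interval -0.63 to 0.58; adjusted p = 0.962), which as a fold of mucosa over bulb spans 0.647 to 1.49. Signals averaged 13.24 ± 0.36 in mucosa and 13.27 ± 0.12 in bulb and overlapped. The second probe had 0.41, 0.096, 0.18 and -0.21, a mean of 0.12 ± 0.26. The sign of the Itgb1 mean turned with the setting: it was 0.26 with median centring, 0.12 without replicate 1 and 0.087 without replicate 2.

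Adhesion machinery was read from a list of 29 genes. The list holds proteins that tie integrin tails to actin, and also signalling proteins and membrane proteins such as Cd151 and Cd47. Of these genes 24 were tested: 3 were higher in mucosa, 0 were lower, and the median was -0.21. This made 12.5% called, against 6.62% over all names. Actn1, the actin cross-linker alpha-actinin 1, had a log2 ratio of 2.46 ± 0.26 (SD, n = 4; adjusted p = 0.00328). Vcl, the adaptor vinculin, had 1.59 ± 0.41 (adjusted p = 0.0166), a call lost without replicate 1 (0.0685) or 2 (0.0819). Parva, the actin-binding adaptor alpha-parvin, had 1.51 ± 0.50 (adjusted p = 0.0236), a call lost without replicate 1 (0.0783), 2 (0.0972) or 3 (0.0667). Ilk, the pseudokinase that binds beta tails and parvin, had 0.62 ± 0.32 and was not called (95% interval 0.086 to 1.15; adjusted p = 0.159). Ptk2, the focal adhesion kinase, had -0.69, -0.53, -2.59 and -0.66, lower on 4 of 4 arrays and most of all on array 3, with a mean of -1.12 ± 0.99 (adjusted p = 0.151).

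**Figure D5:**
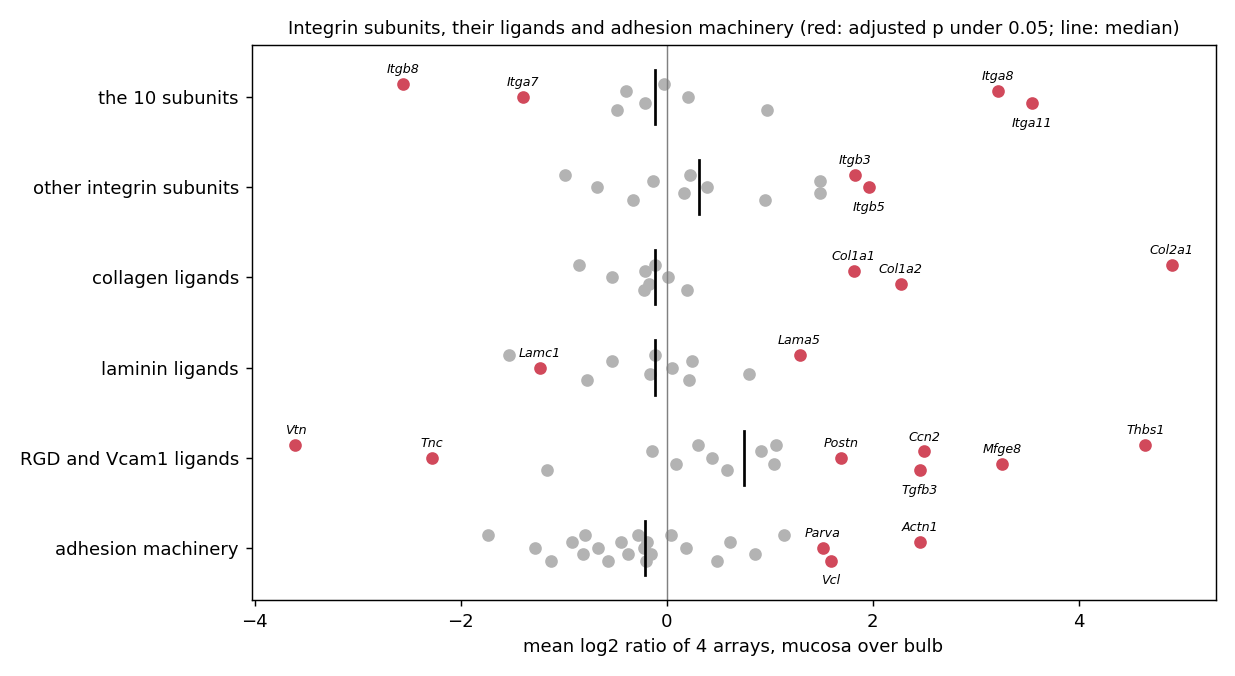
Mean log2 ratio of mucosa over bulb for the 10 subunits, the other integrin subunits, 3 classes of ligand genes and the adhesion machinery; each point is a gene, red points have an adjusted p under 0.05 and are named, and the black line is the list's median. Called genes of the further subunits, the collagen list and the adhesion machinery lie to the right of 0, and those of the other ligand lists and of the 10 subunits lie on both sides.

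Under 23 other settings of signal, normalization, filter, variance model, pairing and replicates, Itga11, Itga8 and Itgb8 were called each time. Their log2 ratios ranged from 3.41 to 3.78 for Itga11, from 3.00 to 3.51 for Itga8 and from -2.64 to -2.31 for Itgb8, with the highest adjusted p at 0.0201, 0.0262 and 0.0267. Itga7 was called under 16 of the 23, with a range of -1.62 to -1.11. The 23 are not independent: the processed signals, the deposited log ratio and the value table give nearly the same ratios. Some others, such as leaving out saturated probes, return the main ratios of these subunits unchanged. The 6 subunits that did not pass the test passed it under none of the 23.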

How the data were processed

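Per the file headers, Agilent Feature Extraction 10.5.1.1 wrote the deposited scanner files, while the submitters' processing notes name version 9.1. Spot and background signals were deposited as linear intensity values, and the authors deposited log10 values of Cy5 over Cy3 as the log ratio, which the value table of the series repeats (0 differences). Each array has 45018 features. With limma 3.58.1 (R 4.3.3), mean signals were background-corrected by normexp (offset 50), then loess was applied within arrays. For the signals given per channel, their overlap and the marker sums, average intensities were also quantile-normalized between arrays. That step leaves the log ratios unchanged. To be tested, a probe needed 3 or more arrays of 1 channel on which 0.5 or more of its spots were well above background. The filter kept 36749 probes and dropped 4263, and for 36 probes a ratio was missing on some array. The brightest probe stood for each name. The mean log2 ratio of the deposited intensity values was tested against 0 with lmFit and eBayes (6.36 degrees of freedom after moderation), with Benjamini-Hochberg adjustment. p-values measure the spread between these 4 replicates, and their number limits the precision. The median signal of an array was 567 to 842 in Cy5 and 342 to 382 in Cy3, with 82.8% to 91.1% of spots well above background.

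The 10 members, the lists of ligands, machinery and markers, and the 6 pairs of subunits were chosen with earlier results of these data known. Named genes are the 10 members, up to 4 called genes of largest absolute ratio with 1 sign on all arrays per list (or the 1 of largest ratio where none was called), and 9 partners, ligands and machinery genes whatever their result. Another 6 genes were singled out after their values were seen. The fit was also run on simulated ratios of independent normal noise with added changes. These hold no dye effect and no effect shared within an array, so they cannot speak to those limits. Probe sequences and rn4 coordinates are those of the deposited files. Alternatives covered background correction, processed signals, the deposited ratio, normalization, filters, probe rule, variance model, a 1.5-fold threshold, unpaired channels and each replicate left out; a correction for GC content of the probes (loess, span 0.3) was added after seeing the data. Files were read with the package data.table, version 1.17.8, and jsonlite 2.0.0, and figures drawn with matplotlib 3.10.9, pandas 2.3.3 and numpy 2.4.6 in Python 3.11.15.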

Additional observations from a re-analysis of the deposited data

Results flagged for a closer look

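Of 36 named genes checked for an array far from the other 3, 3 had one, by a gap over the range above 0.829, and chance gives about 1 in 20. Thbs1 had a log2 ratio of 5.03 on array 2, above 4.51, 4.52 and 4.53 on the others. Ccn2 had 2.62 on array 3, above 2.46, 2.46 and 2.47. Ptk2 had -2.59 on array 3, below -0.69, -0.66 and -0.53. None of the 10 integrin subunits had such an array.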

How the results depend on the processing

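The slide and the scan time were not tried as blocks, because all arrays had 1 of each. The arrays are the pairs; treating both channels as unpaired groups, with no replicate block, gave 1737 names higher and 1742 lower, and of the lists 4 further subunits higher, 1 collagen gene lower, 2 laminin genes lower, and 5 machinery genes higher and 4 lower. It changed no call among the 10 subunits. Treat against 1.5-fold gave 326 higher and 279 lower, 1 subunit lower (Itga7 not called, -1.40, adjusted p = 0.186), 0 laminin genes in either direction and 1 machinery gene higher. The processed signals, the deposited ratio and the value table each gave 694 names lower, 1 subunit lower (Itga7 at -1.43), 0 laminin genes higher and 0 lower, and 1 RGD ligand lower. Median centring gave 0.048 for Itga5, 0.26 for Itgb1 and -0.27 for Vcam1, 0 laminin genes lower and 5 machinery genes higher; it made 59.6% of calls higher, against 48.9%. The mean over probes gave 0.049 for Itgb1, and 0 laminin genes higher and 2 lower. Array weights gave 4 further subunits higher, 1 collagen gene, 2 laminin genes and 2 machinery genes lower. A trended robust variance gave 1 collagen gene, 2 laminin genes and 1 machinery gene lower, and the strict filter 1 RGD ligand lower. The cause was not tested in these cases.

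Leaving out each replicate in turn, 282 to 539 names were higher and 263 to 522 lower, with fewer arrays in each fit. The ratio of Itga7 ranged from -1.62 to -1.25, that of Itgb1 from -0.22 to 0.12, and 1 to 2 of the 10 subunits were lower. Of the further subunits 0 to 3 were higher, of laminin genes 0 were higher and 0 to 1 lower, of RGD ligands 3 to 5 were higher and 1 to 2 lower, and of machinery genes 1 to 3 were higher. Vcam1 ranged from -0.14 to 0.37, with -0.046 without replicate 4, and Itga2 from -0.069 without replicate 2 to 0.90. The smallest called ratio over all names was 0.89 on the log2 scale, and no smaller difference was called with 4 arrays.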
